A study of Homo sapiens with 6 samples.

Results

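The genes described here are 10 feedback and immediate early genes linked to the mitogen-activated protein kinase (MAPK) pathway. They include the MAPK phosphatase genes DUSP4, DUSP5 and DUSP6, the Sprouty and Spred genes SPRY2, SPRED1 and SPRED2, and the gene PHLDA1. The others are the immediate early transcription factor genes EGR1, FOS and JUN. All 10 were chosen by name from the function of their products, with earlier results of these data known. They are 10 of the 23368 gene symbols counted. All 10 were expressed highly enough to be tested, among 13209 genes. RNA was sequenced from NB4 cells, an established human acute promyelocytic leukemia (APL) line that carries the PML/RARα fusion. Cells were either left not treated (n.t.) or exposed to 10 µM maltonis, a synthetic hydroxypyrone made from maltol and dissolved in water, and both groups were harvested at 24 h. Each group had 3 libraries, described as biological replicates of 1 cell line, which limits the data to that line and to a single dose and time. The libraries came from total RNA prepared with a stranded kit that removes ribosomal RNA, and they held between 18492154 and 38205483 counts.

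Growth factor receptors and RAS switch on RAF, MEK and ERK in turn, and ERK then enters the nucleus and phosphorylates transcription factors of the ternary complex family, which sit with SRF on immediate early genes. EGR1, FOS and JUN are such genes, and their mRNAs are made within minutes and are short-lived. A slower set of ERK targets encodes brakes on the same cascade: dual-specificity phosphatases that dephosphorylate the kinases, and Sprouty and Spred proteins that act upstream, around RAS and RAF. In myeloid cells the cascade takes part in proliferation, survival and differentiation, and the mRNA levels of the feedback genes are widely used as a readout of ERK output. The measurements below are of RNA and hold no value for any phosphorylated kinase.

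The question was which of these genes differed between maltonis-treated and n.t. cells, and by how much. In maltonis-treated cells 7 of the 10 genes fell and 1, FOS, rose. SPRED1, JUN, DUSP5 and SPRED2 fell the most, between 3.14-fold and 5.20-fold, DUSP4 and DUSP6 fell by 2.29-fold and 1.77-fold, and PHLDA1 by 1.24-fold. SPRY2 and EGR1 did not pass the test. A gene was called at an adjusted p under 0.01. Every adjusted p quoted here comes from the quasi-likelihood test of edgeR, adjusted over all 13209 genes after Benjamini and Hochberg. Where libraries were left out, the adjustment was over the genes that passed the filter in that fit. At this level 31.9% of all genes tested were higher and 32.1% were lower in maltonis-treated cells, so that 1 of 10 genes higher lies below the share of all genes and 7 of 10 lower lies above it. The median log2 fold change of the 10 genes was −1.01, beside 0.01 over all genes tested.

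With the study's fold criterion added, a change beyond 2.5-fold, 4 of the 10 genes were lower and 0 were higher, beside 10.4% and 9.96% of all genes. No feedback or immediate early gene of the 10 was therefore called higher at that size, and FOS was the 1 called higher without it. SPRED2 and JUN also had more than 10 RPKM in n.t. cells, the level the study asked of a downregulated gene. In 7 of the 10 genes all 3 maltonis libraries lay below all 3 n.t. libraries, and in 1 they all lay above, beside 37.8% and 38.8% of all genes. With 3 libraries against 3, the smallest p of the exact permutation test is 0.1, and these 8 genes reached it. Nothing in the labels says that the libraries came from separate cultures. If they did not, p-values measure only the spread between these samples.

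**Figure D1:**
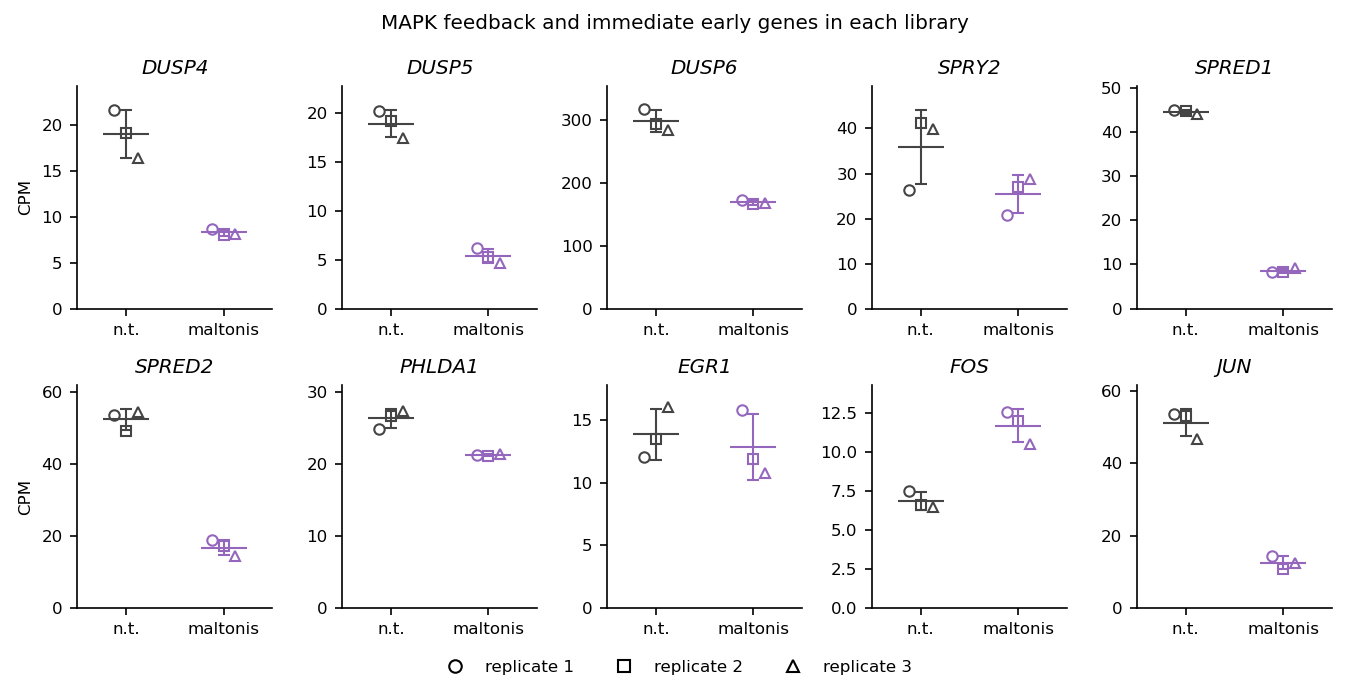
CPM (counts scaled by library size, y axis, from 0) of the 10 genes in n.t. (grey) and maltonis-treated cells (purple), with circles, squares and triangles for replicates 1, 2 and 3, a horizontal line for the mean and a vertical bar for the SD. SPRY2 and EGR1 are the 2 panels in which the groups overlap, and FOS is the 1 panel in which the treated libraries are all higher.

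Levels below are CPM scaled by trimmed mean of M-values (TMM) library sizes, in the order of replicates 1, 2 and 3, and each change is followed by its standard error. In bulk RNA, fewer cells of a type and less RNA per cell cannot be told apart. A code in the deposited names separates replicate 1 of each group (code A) from replicates 2 and 3 (code B). What it stands for is not stated. Differences within each code are given as log2 differences, and code A holds only 1 library per group.

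The phosphatases come first. DUSP6, a cytoplasmic phosphatase selective for ERK, was the most abundant of the 10 genes. Its level was 317, 293 and 283 CPM in n.t. cells and 173, 165 and 167 CPM in maltonis-treated cells. The highest treated library stood well below the lowest n.t. library, and replicates of either group differed little. The mean was 297.8 ± 17.5 CPM in n.t. and 168.4 ± 4.0 CPM in treated cells (SD, n = 3 per group), and the fitted log2 fold change was −0.82 (SE 0.061, 95% confidence interval −0.96 to −0.68, adjusted p = 3.90e-06). The difference was −0.87 in code A and −0.79 in code B.

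DUSP4, a nuclear phosphatase of ERK and JNK, was found at 21.6, 19.1 and 16.4 CPM in n.t. cells and at 8.73, 8.05 and 8.13 CPM after maltonis. The groups did not overlap, and the treated libraries lay within a narrow range. DUSP4 fell by 1.19 on the log2 scale (SE 0.116, interval −1.46 to −0.93, adjusted p = 2.02e-05), with −1.30 in code A and −1.12 in code B. DUSP5, a nuclear phosphatase that acts on ERK and holds it in the nucleus, had 20.1, 19.1 and 17.4 CPM in n.t. cells and 6.14, 5.28 and 4.65 CPM in treated cells. Every treated library thus had less than the lowest n.t. library, and DUSP5 was the phosphatase among the 10 with the largest fitted change, −1.82 (SE 0.119, interval −2.10 to −1.55, adjusted p = 1.76e-06). The pseudogene DUSP5P took 21, 29 and 27 counts in n.t. and 5, 20 and 8 counts in treated libraries, beside 119 to 693 counts of DUSP5 in a library, and how reads were split between the pair is not known. The difference of DUSP5 was −1.70 in code A and −1.86 in code B.

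The other phosphatases of the family were read from a list of 7 genes. Of the 6 that were tested, 4 were lower, 1 was higher and 1 did not pass, with a median log2 fold change of −2.08. These are 66.7% lower and 16.7% higher, beside 32.1% and 31.9% of all genes. DUSP2, a phosphatase induced early in activated blood cells, fell by 2.19 (SE 0.114, adjusted p = 5.05e-07) from 62.3–77.2 to 13.1–16.2 CPM. DUSP7, like DUSP6 a cytoplasmic ERK phosphatase, fell by 1.98 (SE 0.160, adjusted p = 6.53e-06), and DUSP16, which prefers JNK and p38, fell by 2.33 (SE 0.116, adjusted p = 4.05e-07).

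DUSP9 was close to undetected after treatment. It had 25, 73 and 45 counts in n.t. libraries and 0, 2 and 2 counts in treated libraries (adjusted p = 1.75e-05). Summed over the libraries, 143 counts against 4 give a rate 32.9 times higher in n.t. cells, with an exact 95% interval of 12.6 to 122.3 that covers counting error only. DUSP1, an immediate early phosphatase, moved the other way, with 3.20–3.84 CPM in n.t. and 6.62–7.85 CPM in treated cells, and rose by 1.04 (SE 0.124, adjusted p = 7.28e-05). DUSP10, which acts on JNK and p38, had a log2 fold change of 0.28 (SE 0.088, adjusted p = 0.0193) and did not pass, but it was called higher with the code as a covariate and by total counts or upper quartile scaling. DUSP8 had 0 counts in every library.

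Counts of different genes can be compared only per length. RPKM, here CPM per kilobase of annotated exon, summed over all 10 MAPK phosphatases came to 141.5, 128.4 and 121.9 in n.t. and 64.2, 59.8 and 58.3 in maltonis-treated cells. The groups did not overlap, and the mean of 130.6 ± 10.0 in n.t. cells compared with 60.8 ± 3.1 in treated cells, a ratio of 0.465. DUSP6 made up 48.4%, 49.4% and 50.1% of this sum in n.t. cells and 58.2%, 59.7% and 61.8% in treated cells. Its share was therefore higher in each treated library although its own level was lower, and without DUSP6 the ratio of the sums was 0.368.

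**Figure D2:**
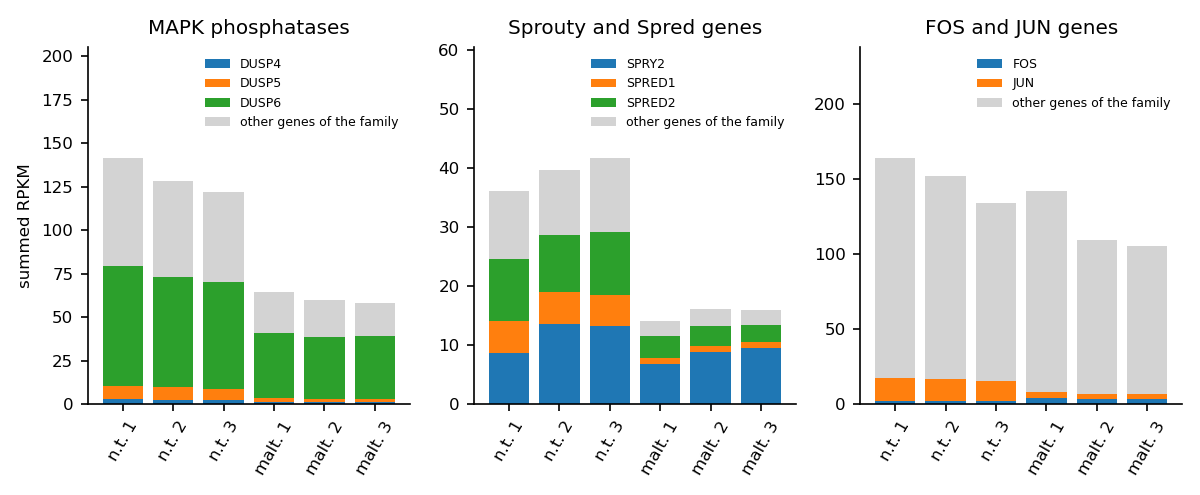
Summed RPKM (y axis, linear from 0) of 3 gene families in each of the 6 libraries (x axis, n.t. and maltonis replicates 1 to 3), stacked by gene, with the genes described here in colour and the other genes of the family in light grey. The phosphatase sum is 122 to 142 in n.t. and 58.3 to 64.2 in treated libraries, the Sprouty and Spred sum 36.0 to 41.7 and 14.0 to 16.0, while the sums of FOS and JUN genes overlap.

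SPRED1 and SPRED2 encode membrane-bound proteins that bring the RAS-GTPase activator neurofibromin to RAS and so limit the activation of RAF. SPRED1 had the largest fitted change of the 10 genes. Its level was 44.9, 44.8 and 44.1 CPM in n.t. cells and 8.31, 8.26 and 9.12 CPM in treated cells. The mean went from 44.6 ± 0.4 to 8.57 ± 0.48 CPM, a log2 fold change of −2.38 (SE 0.0747, interval −2.55 to −2.21, adjusted p = 4.56e-08). Of all genes tested, 3.39% had a lower fitted change. The difference was −2.42 in code A and −2.35 in code B.

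SPRED2 was found at 53.5, 49.2 and 54.5 CPM in n.t. and at 18.7, 17.1 and 14.4 CPM in treated cells. The groups were far apart, and the fitted change was −1.65 (SE 0.102, interval −1.88 to −1.41, adjusted p = 1.33e-06). It was −1.51 in code A and −1.72 in code B.

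SPRY2, a feedback inhibitor of receptor tyrosine kinase signalling, differed from both Spred genes. It had 26.3, 41.3 and 40.0 CPM in n.t. cells and 20.7, 27.0 and 28.7 CPM in treated cells. Replicate 1 was the lowest library of each group, and n.t. replicate 1 lay below 2 of the treated libraries, so that the groups overlapped. The log2 fold change was −0.50 (SE 0.180, interval −0.91 to −0.085, adjusted p = 0.0329) and did not pass, and the exact permutation test gave p = 0.3. The difference was −0.34 in code A, with 1 library per group, and −0.54 in code B, where the groups did not overlap. A fit with the code as a covariate gave −0.49 (adjusted p = 5.05e-05). Without n.t. replicate 1 the value was −0.68 (adjusted p = 0.000774), and with the code B libraries alone −0.55 (adjusted p = 4.21e-05). Other omissions weakened it, to −0.40 without maltonis replicate 1 (adjusted p = 0.1105) and −0.39 without n.t. replicate 2 (adjusted p = 0.1164). Whether SPRY2 is called lower therefore depended on the fit and on the libraries used, and its sign did not.

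Of the 4 other Sprouty and Spred genes, the 2 tested were both lower, beside 32.1% of all genes. SPRY4 went from 33.3–40.6 to 3.83–6.20 CPM, a log2 fold change of −2.87 (SE 0.166, adjusted p = 8.79e-07), and SPRY1 from 21.5–25.5 to 6.30–7.70 CPM, −1.70 (SE 0.110, adjusted p = 1.67e-06). SPRY3 had 0 counts in every library. SPRED3 had 0 counts in each n.t. library and 4, 6 and 8 counts in treated libraries, too few to enter the test, and was called higher by DESeq2 and by edgeR without the filter on low counts. RPKM summed over the 7 genes of the family was 36.0, 39.6 and 41.7 in n.t. and 14.0, 16.0 and 15.9 in treated cells, a ratio of 0.392 with no overlap.

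PHLDA1, a pleckstrin homology-like protein whose mRNA is induced by ERK, had 24.9, 26.6 and 27.4 CPM in n.t. and 21.3, 21.0 and 21.3 CPM in treated cells. All treated libraries lay below all n.t. libraries, and the 3 treated values were nearly identical. The log2 fold change was −0.31 (SE 0.0706, interval −0.47 to −0.15, adjusted p = 0.00337), the smallest called among the 10 genes, with −0.22 in code A and −0.35 in code B. This call was lost under other scalings, at −0.19 by total counts (adjusted p = 0.0329) and −0.23 by the upper quartile (adjusted p = 0.0176). It was also lost without n.t. replicate 2 (adjusted p = 0.0163), n.t. replicate 3 (0.0126), maltonis replicate 2 (0.0157) or maltonis replicate 3 (0.0108).

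**Figure D3:**
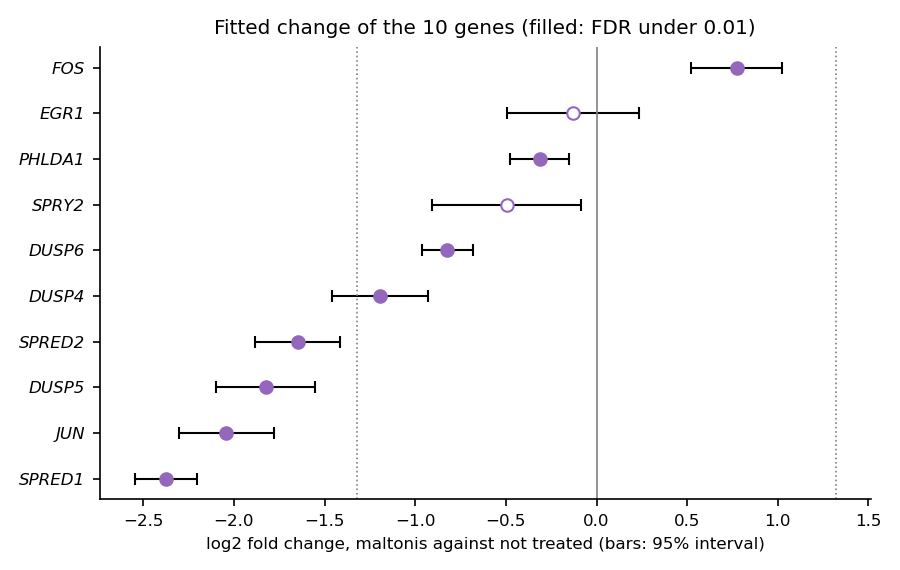
Fitted log2 fold change of maltonis-treated against n.t. cells (x axis) for each of the 10 genes (y axis), with 95% confidence intervals as bars, filled symbols for genes with an adjusted p under 0.01, and dotted lines at the study's criterion of 2.5-fold in either direction. The values run from −2.38 for SPRED1 to 0.77 for FOS, and the interval of EGR1 spans 0.

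The 3 immediate early transcription factor genes went in different directions. EGR1, a zinc finger factor, had 12.0, 13.5 and 16.0 CPM in n.t. and 15.8, 11.9 and 10.8 CPM in treated cells. The groups overlapped almost fully, and the log2 fold change of −0.13 (SE 0.159, interval −0.50 to 0.23, adjusted p = 0.475) did not pass, with p = 0.5 in the exact permutation test. Within the codes the difference had opposite signs, 0.39 in code A with 1 library per group and −0.38 in code B, where edgeR's fit of the 4 libraries gave an adjusted p of 0.0101.

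FOS, the dimer partner of JUN in the factor AP-1, was found in n.t. cells at 7.51, 6.60 and 6.48 CPM. In treated cells it was found at 12.5, 12.0 and 10.5 CPM, and the groups did not overlap. FOS rose from 6.86 ± 0.56 to 11.7 ± 1.1 CPM, a log2 fold change of 0.77 (SE 0.110, interval 0.52 to 1.02, adjusted p = 0.000214). The increase was 0.74 in code A and 0.77 in code B, and 20.2% of all genes tested had a higher fitted change.

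JUN had 53.7, 53.0 and 46.8 CPM in n.t. and 14.5, 10.7 and 12.3 CPM in treated cells, again without overlap. The mean went from 51.2 ± 3.8 to 12.5 ± 1.9 CPM, and the log2 fold change was −2.04 (SE 0.115, interval −2.31 to −1.78, adjusted p = 7.60e-07). It was −1.89 in code A and −2.11 in code B, and 4.92% of all genes had a lower value. FOS and JUN thus changed in opposite directions, and the ratio of FOS to JUN RPKM was 0.153, 0.136 and 0.151 in n.t. cells and 0.949, 1.22 and 0.933 in treated cells. Because FOS was higher and JUN lower in every treated library, this ratio had to lie above that of every n.t. library. Its exact permutation p of 0.1, the smallest possible, was fixed by this and adds no evidence. The mean ratio was 0.147 ± 0.009 in n.t. and 1.03 ± 0.16 in treated cells.

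The promoters of EGR1, FOS and JUN are shown because these genes share a class. Any link between their sequences and the changes of their RNAs was not tested. The sequences are the 150 bases before the RefSeq start of each gene in GRCh38.p14, on the strand of the gene, at chr5:138465329-138465478 for EGR1 on the plus strand, chr14:75278678-75278827 for FOS on the plus strand and chr1:58784048-58784197 for JUN on the minus strand. Capitals mark matches on either strand to the CArG box bound by SRF, to TGACATCA (a variant of the cyclic AMP response element), to TATAAA and to TGACG, which is also the first part of the full element TGACGTCA.
EGR1: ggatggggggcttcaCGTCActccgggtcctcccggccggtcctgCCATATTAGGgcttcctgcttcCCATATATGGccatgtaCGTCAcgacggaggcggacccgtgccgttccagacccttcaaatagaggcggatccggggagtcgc
FOS: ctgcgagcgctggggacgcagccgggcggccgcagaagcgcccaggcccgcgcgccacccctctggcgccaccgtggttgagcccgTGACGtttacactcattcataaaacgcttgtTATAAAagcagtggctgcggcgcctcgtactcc
JUN: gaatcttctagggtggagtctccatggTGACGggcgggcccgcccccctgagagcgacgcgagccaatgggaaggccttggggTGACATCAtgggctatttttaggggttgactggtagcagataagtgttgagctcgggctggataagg

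Motifs were searched on both strands in windows of 250 bases before and 50 after the start, which matched 8 of the 10 genes and 9129 of the genes tested by symbol, with no entry used for DUSP4 and DUSP5. EGR1 was the only one of the 8 with a CArG box inside this window, a motif that 0.986% of all windows hold. It had 2, CCATATTAGG starting 105 bases and CCATATATGG starting 83 bases before the start. TATAAA, in 5.56% of windows, was matched in FOS at 33 bases, and TGACATCA, in 1.51%, in JUN at 67 bases before the start. TGACG was found in 5 of the 8 windows, those of SPRY2, SPRED2, EGR1, FOS and JUN, and in 34.2% of all windows. GGGCGG was in 6 of 8 and in 69.5% of all, and the EGR motif, GCGGGGGCG or GCGTGGGCG, was in the window of SPRY2 and in 9.41% of all. None of the 8 windows held the AP-1 motif TGACTCA or TGAGTCA (3.13% of all), the full element TGACGTCA (3.23%) or the ETS motif CCGGAAG (19.5%). Sites more than 250 bases before the start were not searched, so a gene without a match may hold the motif further upstream. These are matches of letters only, and no binding was measured here.

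Around EGR1, a list of 5 related genes held its paralogs and the NAB genes, which encode corepressors of EGR factors. Of 4 tested, 3 were lower and 0 higher, with a median log2 fold change of −0.85. The share lower was 75%, beside 32.1% of all genes, and 31.9% of all genes were higher. EGR2 fell by 1.52 (SE 0.183, adjusted p = 7.89e-05) from 3.09–4.34 to 1.14–1.40 CPM, NAB2 by 0.96 (SE 0.0825, adjusted p = 9.46e-06) and NAB1 by 0.59 (SE 0.0871, adjusted p = 0.00028). EGR3 had 9 to 34 counts in any library, overlapping groups and a log2 fold change of −0.75 (SE 0.324, adjusted p = 0.0633), and EGR4 had at most 1 count.

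Around FOS and JUN, calls among the 5 other AP-1 genes went in both directions, 20% higher and 40% lower. FOSB, at 0.799–1.30 CPM in n.t. and 4.83–5.73 CPM in treated cells, rose by 2.22 (SE 0.173, adjusted p = 5.08e-06). FOSL2 fell by 0.59 (SE 0.0723, adjusted p = 8.70e-05), and so did FOSL1 by 0.70 (SE 0.154, adjusted p = 0.0029), although the call of FOSL1 was lost without n.t. replicate 2, maltonis replicate 2 or maltonis replicate 3, with adjusted p up to 0.0129. JUND (0.07, SE 0.159, adjusted p = 0.695) did not pass. Neither did JUNB (−0.38, SE 0.119, adjusted p = 0.0181), but it was called lower under 8 of 16 alternatives, the code as a covariate among them, with values from −0.52 to −0.26. Over all genes tested 31.9% were higher and 32.1% lower, so calls in both directions are no trait of this family alone. By the main test FOS and FOSB were the 2 called higher of the family of 7, and JUN, FOSL1 and FOSL2 the 3 called lower. Their summed RPKM overlapped between the groups, at 163.9, 151.6 and 133.6 in n.t. and 141.7, 108.9 and 105.5 in treated cells, most of it from JUNB and JUND, with mean RPKM of 82.2 and 35.5 in n.t. cells.

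**Figure D4:**
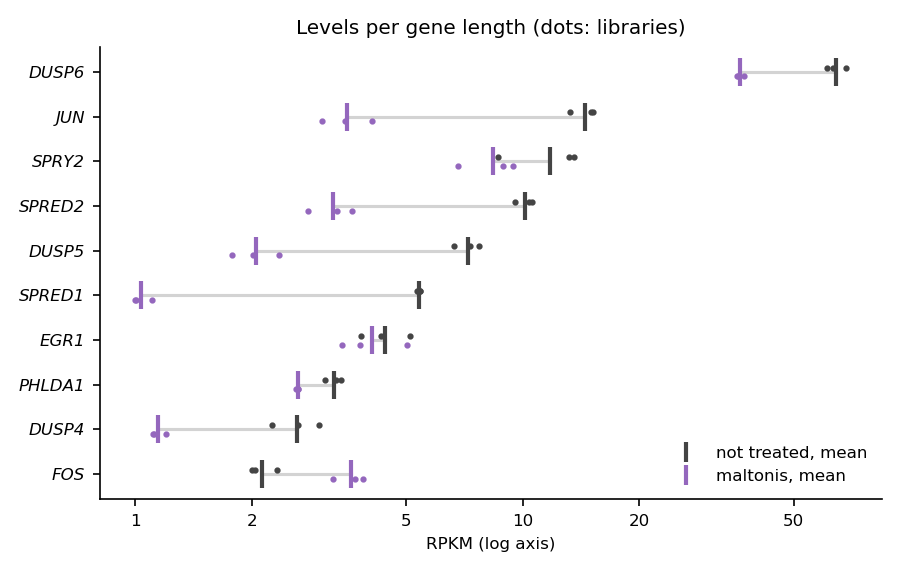
RPKM (x axis, log scale) of the 10 genes (y axis), with dots for the 3 libraries of each group, vertical marks for the group means and a grey line between them, n.t. in grey and maltonis in purple. JUN and SPRED1 move furthest to the left, and FOS is the 1 gene whose treated mean lies to the right.

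Per length, the 10 genes in n.t. cells ranged from DUSP6 at 64.3 ± 3.8 RPKM to FOS at 2.12 ± 0.17 RPKM. Between them came, in order of mean level, JUN at 14.5 ± 1.1, SPRY2 at 11.8 ± 2.7, SPRED2 at 10.2 ± 0.5, DUSP5 at 7.22 ± 0.53, SPRED1 at 5.39 ± 0.05, EGR1 at 4.42 ± 0.65, PHLDA1 at 3.26 ± 0.16 and DUSP4 at 2.62 ± 0.36 RPKM. The ranges of JUN and SPRY2, of SPRY2 and SPRED2, and of DUSP4 and FOS overlapped, so that the order within these pairs is not resolved.

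In treated cells the order was DUSP6 at 36.4 ± 0.9, SPRY2 at 8.38 ± 1.39, EGR1 at 4.09 ± 0.84, FOS at 3.61 ± 0.33, JUN at 3.53 ± 0.53, SPRED2 at 3.25 ± 0.42, PHLDA1 at 2.63 ± 0.02, DUSP5 at 2.05 ± 0.29, DUSP4 at 1.14 ± 0.05 and SPRED1 at 1.04 ± 0.06 RPKM. Neighbours from EGR1 to SPRED2 overlapped, and the others did not. These levels depend on the exon lengths used: with lengths from the basic transcript set, SPRED2 ranked above SPRY2 in n.t. cells, at 12.6 ± 0.7 RPKM, and the ranges of DUSP4 and SPRED1 overlapped in treated cells.

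A published set of 10 transcripts that scores MAPK activity shares DUSP4, DUSP6, SPRY2 and PHLDA1 with the 10 genes described here. It also holds SPRY4, whose values were given above. The counts of this set therefore repeat earlier results in part, and among its tested genes only ETV4, CCND1 and ETV5 are new. Of its 8 genes tested, 7 were lower, 0 higher and 1, SPRY2, did not pass, with a median log2 fold change of −1.25. The share lower was 87.5%, beside 32.1% of all genes, and 31.9% of all genes were higher. ETV4, an ETS factor gene induced by ERK, fell by 4.12 (SE 0.0827, adjusted p = 1.92e-08) from 82.5–91.3 to 4.69–5.04 CPM. CCND1, the gene of cyclin D1, fell by 2.94 (SE 0.0806, adjusted p = 2.87e-08) from 66.9–70.8 to 8.34–9.76 CPM, and ETV5 by 1.31 (SE 0.0591, adjusted p = 2.44e-07). Neither receptor gene of the set was expressed at a level that could be tested, EPHA2 with 0 counts in all libraries and EPHA4 with at most 3.

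Of 23 genes of the cascade itself, from the adaptors to ERK and its kinase targets, 9 were lower (39.1%), 3 higher (13%) and 11 did not pass, beside 32.1% and 31.9% of all genes, with a median log2 fold change of −0.20. HRAS fell by 0.87 (SE 0.0654, adjusted p = 4.11e-06). The scaffold gene KSR1 fell by 0.99 (SE 0.200, adjusted p = 0.00186), a call lost without maltonis replicate 2 (adjusted p = 0.0119). MAPK3, which encodes ERK1, rose by 0.93 (SE 0.0943, adjusted p = 2.64e-05). The number higher depended on the scaling and the fit, and was 7 by total counts and 6 by the upper quartile or with the code as a covariate.

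The JNK and p38 branches, which phosphorylate JUN and ATF2, gave 4 genes lower, 4 higher and 8 that did not pass of 16, with a median of −0.18. That is 25% in either direction, beside 32.1% lower and 31.9% higher of all genes. MAP3K4 fell by 2.21 (SE 0.086, adjusted p = 1.24e-07) and MAP3K1 by 1.22 (SE 0.0613, adjusted p = 4.23e-07), both kinases near the top of these branches. The p38 genes MAPK13 and MAPK11 rose by 1.49 (SE 0.182, adjusted p = 8.49e-05) and 0.99 (SE 0.103, adjusted p = 3.05e-05). With the code as a covariate, or in the code B libraries alone, 7 genes were lower.

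For SRF and the factors that work with it at CArG boxes, 2 of 6 genes were lower, 1 higher and 3 did not pass, with a median of 0.13. These shares, 33.3% lower and 16.7% higher, stand beside 32.1% and 31.9% of all genes. ELK3 fell by 1.65 (SE 0.127, adjusted p = 4.68e-06) and SRF by 0.58 (SE 0.0743, adjusted p = 0.000119). MKL2 rose by 0.77 (SE 0.189, adjusted p = 0.00519), but not without n.t. replicate 2 or without any 1 of the 3 maltonis libraries, with adjusted p up to 0.0298.

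Immediate early genes outside these families were called in both directions. Of 28 tested from a list of 31, 12 were lower, 10 higher and 6 did not pass, which is 42.9% lower and 35.7% higher, beside 32.1% and 31.9% of all genes, with a median log2 fold change of −0.09. IER3 fell by 3.97 (SE 0.237, adjusted p = 1.06e-06), from 11.0–14.4 to 0.603–1.34 CPM. PHLDA2, a relative of PHLDA1, fell by 2.38 (SE 0.287, adjusted p = 7.68e-05), the orphan receptor gene NR4A1 by 2.35 (SE 0.133, adjusted p = 7.85e-07), and ZFP36L1, which encodes a protein that destabilizes mRNAs, by 2.20 (SE 0.281, adjusted p = 0.000111). The largest increases, named after their values were seen, were those of IER5L at 1.70 (SE 0.175, adjusted p = 2.92e-05) and of the orphan receptor gene NR4A2 at 1.37 (SE 0.265, adjusted p = 0.00141).

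**Figure D5:**
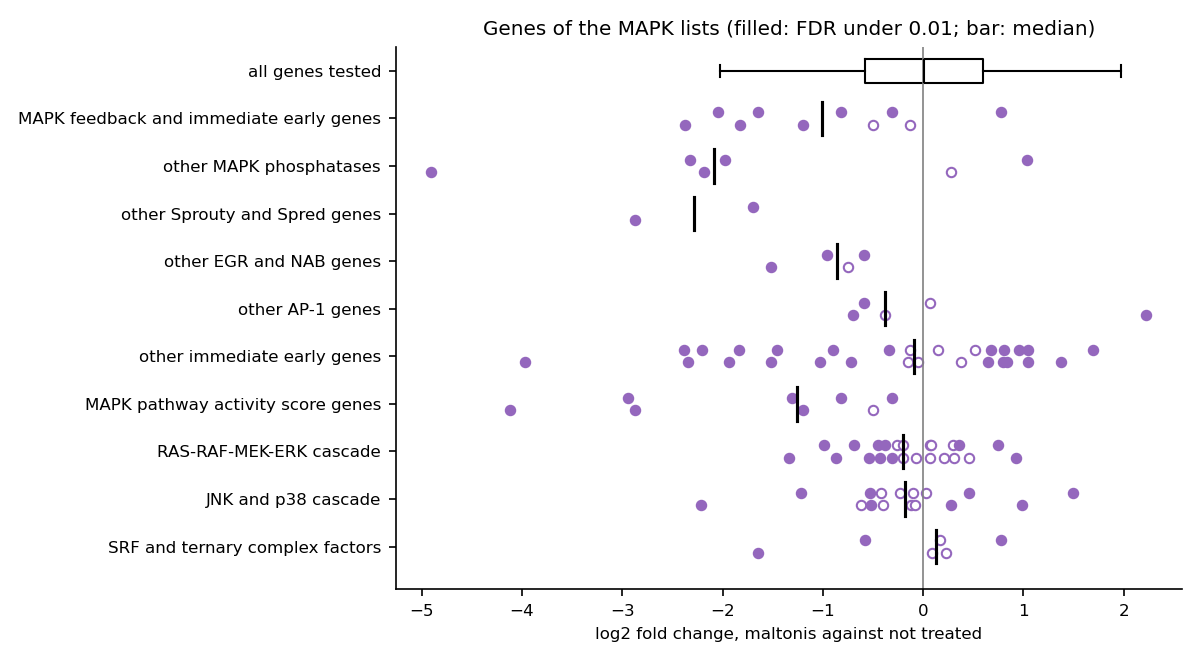
Log2 fold change of maltonis-treated against n.t. cells (x axis) for the tested genes of each list (y axis), 1 symbol per gene, filled where the adjusted p is under 0.01, with a black bar at the list's median and, in the top row, a box plot of all 13209 genes (box for the quartiles, line for the median, whiskers from percentile 5 to percentile 95). Medians run from −2.28 for the 2 other Sprouty and Spred genes to 0.13 for SRF and its partners, beside 0.01 for all genes.

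The identity of the cells was read from markers. All 9 promyelocyte markers were expressed and tested, from 29.7 to 15528 CPM for 1 marker in 1 library. MPO, the myeloperoxidase gene, lay at 12892–15528 CPM in n.t. and 7298–7553 CPM in treated cells. Over all genes tested 32.1% were lower and 31.9% higher. Of the 9 markers 6 were lower (66.7%) and 2 higher (22.2%). The higher ones were the granule protease gene CTSG, at 103–113 CPM in n.t. and 539–576 CPM in treated cells (log2 fold change 2.34, SE 0.0632, adjusted p = 2.77e-08), and AZU1 (0.48, SE 0.0936, adjusted p = 0.00148). Of 8 markers of other lineages, HBB had 0 counts in all libraries and CD3E, PPBP and COL1A1 at most 4, while the sum of the 8 was 18.4–20.9 CPM in n.t. and 11.6–14.1 CPM in treated cells. Nearly all of it came from EPCAM, at 16.0–17.6 and 10.2–12.8 CPM, with CD79A at 1.90–2.93 and 0.826–0.954 CPM. Both were lower in treated cells, and their part in the results above was not tested.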

How the data were processed

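RNA-seq was available for 3 n.t. and 3 maltonis-treated NB4 libraries, grouped by GEO's labels. The authors deposited whole-number counts of reads per gene symbol, without normalization. TopHat, Bowtie2, HTSeq and hg19 are named in the submitters' processing notes. Their versions, the annotation and the strand setting are not given in the sources used here, so reads of overlapping genes, such as the antisense genes annotated at DUSP6 and PHLDA1, could be shared. No row lacked a gene name.

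The counts were tested with edgeR 4.0.16 under R 4.3.3 (TMM, filterByExpr, quasi-likelihood fit of both groups with no covariate, Benjamini-Hochberg adjustment over 13209 genes). Standard errors are the log2 fold change over the square root of F. RPKM used the summed exon length in GENCODE 29, for genes matched by symbol. Promoter sequences are from RefSeq (GRCh38.p14), used without the files' hg19 coordinates. Differences within codes are of log2 CPM with a prior count of 2. Figures and permutation tests used Python 3.11.15 with scipy 1.17.1.

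Totals per library lay between 18492154 and 38205483 counts, at which 3 counts equal 0.0785 to 0.162 CPM, and the 10 most abundant genes took 5.30% to 6.09%. Replicate pairs differed by more than sampling noise (chi-square per degree of freedom of 4.15 to 33.1), so each library was 1 sample. The test was tried beforehand on simulated data.

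All 10 genes are named, with up to 4 genes of each list by size of change among those called, and every gene with counts of the phosphatase, Sprouty and Spred, EGR and NAB, AP-1 and activity score lists. Genes without counts, DUSP5P and markers are named outside this rule, and some genes of the lists are not reported here. Members and lists were chosen with earlier results of these data known. Alternatives were other scalings, no filter on low counts, DESeq2 1.42.0, edgeR's likelihood ratio test, limma 3.58.1 (voom), the replicate block, the code, and each library left out. The basic-set lengths and the fit of code B alone were chosen after seeing the data.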

Additional observations from a re-analysis of the deposited data

How the results depend on the processing

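Under each of 16 alternatives, all 10 genes kept the sign of their change, and 150 of 160 values kept their side of the threshold. The number of the 10 genes called lower was 6 to 8, and 8 at an adjusted p under 0.05, and FOS stayed the 1 called higher. The exceptions were SPRY2, called under 4 alternatives, and PHLDA1, lost under 6. Total counts and upper quartile scaling moved the median of all genes from 0.01 to 0.13 and 0.10 on the log2 scale. Replicate numbers are not stated to mark shared cultures, and same-numbered deviations correlated at 0.301, 0.085 and 0.161, so they were not taken as pairs. Correlations were positive within a code (0.085 to 0.301) and negative between codes (−0.23 to −0.16). Deviations were taken from the mean of each group, so these values constrain each other and are no separate test of the code. With the replicate block 8 genes were lower and SPRY2 was −0.49 (adjusted p = 0.000152). It raised calls over all genes to 4602 higher and 4620 lower, from 4213 and 4239. Replicates 1 and 3 correlated best with their own number, and replicate 2 did not. For EGR1, at 226 to 532 counts a library, the change ranged from −0.38 to −0.01 over the alternatives. With 3 libraries a group, outlying single values could not be tested.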
